A study of Mus musculus with 56 samples.

Results

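The genes described here encode the subunits of the proteasome, the barrel-shaped protease that degrades proteins tagged with ubiquitin. They were chosen by name, as annotated mouse genes called Psma, Psmb, Psmc or Psmd followed by a digit, with pseudogene copies left out. By this rule 36 of the 13451 genes measured in sorted reprogramming cells were members, and 38 of the 12935 genes measured in unsorted cells at day 10. Psmb8 and Psmb9 were listed in the day 10 cells and not in the table of the sorted cells. Psmc3ip shares the first letters, encodes a recombination protein and was kept apart.

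The cells were OG2 mouse embryonic fibroblasts, which carry a green fluorescent reporter of the pluripotency gene Oct4, driven towards pluripotency with Oct4, Sox2, Klf4 and c-Myc (OSKM) in medium with vitamin C. In the sorted-cell experiment the factors came from an inducible lentivirus that encodes them in tandem, switched on by rtTA and doxycycline, and every population carried a short hairpin RNA against either Ctcf (shCTCF) or a control target (shLuci). CTCF is a DNA-binding insulator protein. The 11 populations were day 0 cells, Thy1+, SSEA1+ and SSEA1-Thy1- (double-negative) cells of days 3, 6 and 9, and GFP+ cells of day 12, each with 2 libraries per hairpin, 44 in all. Thy1 is a fibroblast surface protein, and SSEA1 is a surface sugar that marks cells on the way to pluripotency. At day 10, unsorted cells had received OSKM with CTCF and a hairpin against the chromatin remodeller Smarca5, OSKM with CTCF, or OSKM with a control vector, with 2 columns each. Other day 10 cells carried a hairpin against Ctcf or a control hairpin, with 2 libraries each. These hairpin cells enter below only through a comparison that the authors deposited. One library of established induced pluripotent stem cells (iPSCs) and 1 of starting fibroblasts (MEFs) were also sequenced. The labels do not say that replicate libraries came from separate cultures, so the p-values measure the spread between these libraries, which may be technical.

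The core of the proteasome is a stack of rings of α and β subunits. The β subunits Psmb5, Psmb6 and Psmb7 carry the chymotrypsin-like, caspase-like and trypsin-like cutting activities. In cells exposed to interferon, and in many immune cells, Psmb8, Psmb9 and Psmb10 take the places of Psmb5, Psmb6 and Psmb7 and form the immunoproteasome, which is known for making peptides for MHC class I molecules. A regulatory particle with a ring of ATPases (Psmc1 to Psmc6) and a lid caps the core, binds ubiquitinated proteins and threads them in. Constitutive subunits are made in nearly all cells, and proteasome activity is known to be high in pluripotent stem cells.

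By role, the 36 genes of the sorted cells were 8 α-ring genes (Psma1, Psma2, Psma3, Psma4, Psma5, Psma6, Psma7 and the testis subunit Psma8, which replaces Psma7 in germ cells), 7 constitutive β-ring genes (Psmb1 to Psmb7), the immunoproteasome gene Psmb10, 6 ATPases, 11 non-ATPase genes of the base and lid, and 3 assembly chaperones of the base. The non-ATPase genes were the base scaffolds Psmd1 and Psmd2, the ubiquitin receptor Psmd4, the lid deubiquitinase Psmd14 and the lid subunits Psmd3, Psmd6, Psmd7, Psmd8, Psmd11, Psmd12 and Psmd13. The chaperones were Psmd5, which holds the ATPase Psmc2 during assembly, Psmd9 and Psmd10. Psmb11, the thymus subunit, was in neither of these tables. The 38 genes lay on 16 chromosomes in GRCm38 (GENCODE vM21). Psmb8 (chr17:34197721-34201454, + strand) and Psmb9 (chr17:34181987-34187764, - strand) were neighbours in the major histocompatibility complex, whereas Psmb10 (chr8:105935735-105938444, - strand) and Psmb5 (chr14:54614119-54618022, - strand) lay elsewhere.

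Exons of 11 of the 38 genes overlapped exons of another gene, among them 405 bp of Psmb7 with Nek6, 498 bp of Psmb8 with Gm20496, 212 bp of Psmb9 with Tap1 and 1849 bp of Psmd9 with Gm26745, each on the opposite strand. The library kit named in the labels does not mark strand, so reads from such pairs cannot be told apart there. The annotation also held 4 named pseudogene copies (Psmb5-ps, Psmb6-ps, Psmb6-ps2 and Psmb7-ps2), and scores of Psmb5, Psmb6 and Psmb7 are uncertain to the extent that reads were shared with them.

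The upstream sequences of the immunoproteasome genes and of constitutive partners are shown because these are the genes whose products exchange in the core. The windows are from RefSeq (GRCm38.p6), 250 bases before to 50 bases after an annotated start, 5′ to 3′ on the strand of the gene. Capitals mark a match to one of 5 motifs searched on both strands. These were TGACNNNGC, the antioxidant-type element of the proteasome regulators Nfe2l1 and Nfe2l2, the CCAAT box, an interferon-stimulated element (GAAA, any 2 bases, GAAA), TTCNNNGAA (a gamma-activated site) and CCGGAAG (an ETS-type element).
Psmb10, chr8:105938343-105938642, - strand: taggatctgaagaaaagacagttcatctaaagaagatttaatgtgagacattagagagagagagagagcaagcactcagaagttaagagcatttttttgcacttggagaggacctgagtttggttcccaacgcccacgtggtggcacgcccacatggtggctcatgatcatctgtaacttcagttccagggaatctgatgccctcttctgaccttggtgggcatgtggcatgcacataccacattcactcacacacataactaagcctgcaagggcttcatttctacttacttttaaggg
Psmb8, chr17:34197945-34198244, + strand: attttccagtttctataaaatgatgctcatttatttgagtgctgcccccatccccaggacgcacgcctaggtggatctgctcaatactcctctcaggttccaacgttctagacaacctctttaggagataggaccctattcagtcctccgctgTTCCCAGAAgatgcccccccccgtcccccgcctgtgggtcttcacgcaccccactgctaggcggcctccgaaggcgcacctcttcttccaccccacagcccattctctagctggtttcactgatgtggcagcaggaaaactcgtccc
Psmb9, chr17:34187281-34187580, - strand: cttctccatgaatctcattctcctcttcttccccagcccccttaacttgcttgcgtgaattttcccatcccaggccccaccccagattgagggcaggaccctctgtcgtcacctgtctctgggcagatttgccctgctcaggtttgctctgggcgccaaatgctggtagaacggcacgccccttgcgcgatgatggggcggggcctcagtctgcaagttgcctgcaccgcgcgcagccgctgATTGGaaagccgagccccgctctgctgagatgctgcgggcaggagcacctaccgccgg
Psmb5, chr14:54617946-54618245, - strand: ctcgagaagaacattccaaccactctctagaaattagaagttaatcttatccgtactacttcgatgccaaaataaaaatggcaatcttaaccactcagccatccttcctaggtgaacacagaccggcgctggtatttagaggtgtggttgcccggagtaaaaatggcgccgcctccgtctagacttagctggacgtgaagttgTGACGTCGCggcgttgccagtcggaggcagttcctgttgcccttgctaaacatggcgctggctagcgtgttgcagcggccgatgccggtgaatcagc
Psmb6, chr11:70525107-70525406, + strand: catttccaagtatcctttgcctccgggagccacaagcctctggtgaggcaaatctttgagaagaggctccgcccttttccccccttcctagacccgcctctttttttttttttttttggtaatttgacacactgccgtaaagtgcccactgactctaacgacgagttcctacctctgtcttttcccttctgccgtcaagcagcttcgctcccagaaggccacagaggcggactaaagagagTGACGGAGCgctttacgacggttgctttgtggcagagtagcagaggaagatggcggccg

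The Psmb10 window held none of the 5 motifs. Its start lies 382 bases before the annotated start codon (chr8:105938008-105938010), so the bases next to the coding part were outside the window. The Psmb8 window held TTCNNNGAA as TTCCCAGAA, 97 bases before the start. The Psmb9 window held the CCAAT box on the other strand, printed as ATTGG, 8 bases before the start, and overlapped the window of the divergent gene Tap1 (chr17:34187306-34187605). The windows of Psmb5 and Psmb6 held TGACNNNGC as TGACGTCGC and TGACGGAGC, 47 and 9 bases before the start. Counted by gene over all 27025 genes in the table, 14.0% had a window with TGACNNNGC, 41.1% CCAAT, 3.99% the interferon-stimulated element, 9.55% TTCNNNGAA and 9.93% CCGGAAG, and of all 32851 windows 12.4%, 37.4%, 3.44%, 8.30% and 8.86% held them. Of the 31 proteasome genes with a window, 5 held TGACNNNGC (Psmb5, Psmb6, Psmc6, Psmd9 and Psmd12), 12 CCAAT, 3 the interferon-stimulated element (Psmb3, Psmd4 and Psmd9), 2 TTCNNNGAA (Psmb8 and Psmd2) and 10 CCGGAAG. A match describes letters in a window and is not evidence of binding.

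The values are the authors' normalized scores, whole numbers per gene and library, whose sums ran from 31777102 to 31798964 in sorted cells and from 19465402 to 19479768 at day 10, with a median score of 500 in every sorted library and 599 in every day 10 library. Sequencing depth cannot be read from them. The proteasome genes made up 0.371 to 0.624% of the scores in sorted cells and 0.570 to 0.685% at day 10. The share in sorted cells leans on Psmd14, which averaged 59949 in control-hairpin cells of day 0. That was 24.5 times the median subunit, against 1.02 times in the MEF counts. The Ctcf score was lower under the hairpin at day 12 (698 and 674 with shCTCF, against 2381 and 2441 with shLuci) and at day 0 (520 and 616, against 790 and 830), and higher at day 10 with the CTCF vector (5110 and 6132, against 1262 and 1234 with the control vector). Replicates of several groups differed across nearly all proteasome genes at once: 33 of 36 were higher in replicate 2 of shCTCF Thy1+ cells of day 3, 31 in replicate 2 of shCTCF SSEA1+ cells of day 6, and 31 lower in replicate 2 of shCTCF SSEA1+ cells of day 9. At day 10, 37 of 38 were lower in replicate 2 of the CTCF cells.

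**Figure D1:**
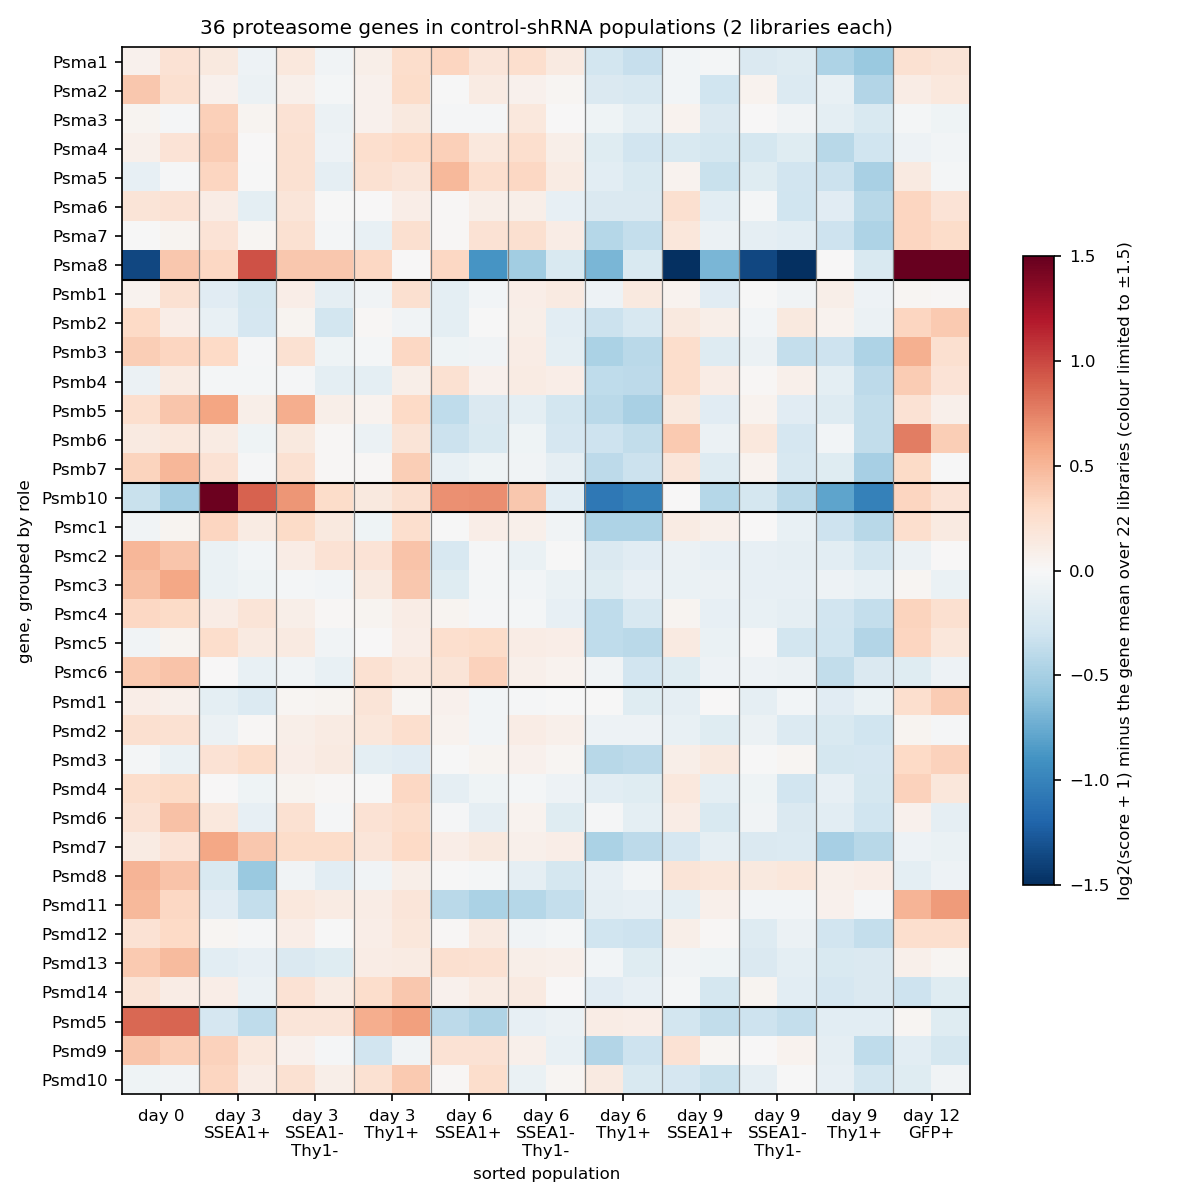
Scores of the 36 proteasome genes in the 11 control-hairpin populations as log2 difference from the mean of each gene, rows grouped by role and columns by day and sort, each cell 1 library. Thy1+ cells of days 6 and 9 are low over most rows, Psma8 is high at day 12, and Psmb10 is highest in SSEA1+ cells of day 3.

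Across the whole course, GFP+ cells of day 12 against day 0 fibroblasts, both with the control hairpin, the proteasome genes moved little. Of the 36 genes, 4 were higher and 9 lower by limma on log2(score + 1) with Benjamini-Hochberg adjustment over all genes (adjusted p below 0.05), where 40.1% of all genes were higher and 40.2% lower. The median log2 fold change was -0.04 over the proteasome genes (0.005 after quantile normalization) and -0.01 over all genes. The median size of change was 0.24 log2 units in the proteasome genes and 0.94 in all genes, and 1 proteasome gene (2.78%) against 47.7% of all genes changed at least 2-fold. After scaling libraries to their median gene, 7 were higher and 9 lower. In bulk samples, fewer cells of a type and less RNA per cell cannot be told apart.

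The gene past 2-fold was Psma8, the germ-cell α subunit, which scored 134 and 145 at day 12, against 4 and 16 at day 0. Both day 12 libraries stood far above all other control-hairpin libraries, which lay between 2 and 24. The log2 fold change was 3.93 (SE 0.531, adjusted p = 1.69e-07), and against SSEA1+ cells of day 9, with 2 and 7, it was 4.84 (SE 0.531, adjusted p = 1.68e-08). Its constitutive counterpart Psma7 and the other 6 α-ring genes did not pass the test at day 12 against day 0.

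Of the constitutive β-ring genes limma called 0 of 7, with 1 (Psmb6) at an unadjusted p under 0.05, against 10900 of all 13451 genes. Psmb5 scored 1018 and 928 at day 12, against 1041 and 1171 at day 0. Psmb6 scored 1888 and 1434 at day 12, against 1213 and 1239 at day 0. Psmb7 scored 3412 and 2806 at day 12, against 3548 and 3975 at day 0. Psmb6 was higher in both day 12 libraries and Psmb7 lower in both, neither past the threshold (limma log2 fold change 0.42, 95% interval 0.01 to 0.84, adjusted p = 0.0574, for Psmb6, and -0.28, interval -0.66 to 0.10, adjusted p = 0.166, for Psmb7).

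Psmb10, the immunoproteasome partner of Psmb7, scored 248 and 230 at day 12, against 157 and 139 at day 0. The groups did not overlap, and the gene rose by 0.69 log2 units (SE 0.225, adjusted p = 0.00683). Without replicate 2 of day 0 the adjusted p of Psmb10 was 0.0530. The log2 ratio of Psmb10 to Psmb7, which is not corrected for gene length, was -3.69 ± 0.123 at day 12 and -4.66 ± 0.239 at day 0 (SD, n = 2 each), a difference of 0.97.

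In the regulatory particle, against the same 40.2% of all genes lower and 40.1% higher at day 12 against day 0, 3 of 6 ATPases fell and 0 rose. Psmc3 scored 2357 and 2140 at day 12, against 3144 and 3455 at day 0 (log2 fold change -0.55, SE 0.125, adjusted p = 0.000238), and Psmc6 (-0.54) and Psmc2 (-0.50) fell with it. Psmc1, Psmc4 and Psmc5 did not pass the test.

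Of the 11 base and lid genes, 2 rose and 4 fell. Psmd3, a lid scaffold, scored 3499 and 3610 at day 12, against 2784 and 2662 at day 0 (0.38, SE 0.0574, adjusted p = 8.73e-07). Psmd8, another lid subunit, scored 2380 and 2502, against 3756 and 3536 (-0.58, SE 0.105, adjusted p = 1.59e-05). In both genes the 2 groups were clearly apart. Psmd1 rose by 0.23, with an adjusted p of 0.0126 that became 0.0566 without replicate 2 of day 0 and 0.131 without replicate 2 of day 12. Psmd14 (-0.40), Psmd13 (-0.38) and Psmd2 (-0.22) fell.

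Of the chaperones of the base, 2 of 3 fell. Psmd5 scored 1219 and 1056 at day 12, against 2180 and 2186 at day 0, a log2 fold change of -0.94, the lowest of the 36 (SE 0.0974, adjusted p = 1.27e-09). Psmd9 scored 324 and 300, against 480 and 464 (-0.60, SE 0.110, adjusted p = 2.07e-05). Psmd10 (-0.05) did not pass.

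Markers of several other cell types moved in the same comparison. The sums of 3 endothelial markers overlapped, with 1071 and 1215 at day 12, against 1086 and 1113 at day 0. The summed score of 6 fibroblast markers was 11738 and 12411 at day 12, against 74319 and 66927 at day 0, that of 6 pluripotency markers 33552 and 33376, against 8 and 8, and that of 11 macrophage markers 2127 and 2223, against 7248 and 8748. All 6 pluripotency markers were above 0 at day 12. Whether macrophage or other cells contributed to the day 0 levels of Psmb10 or Psmd5 was not tested.

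**Figure D2:**
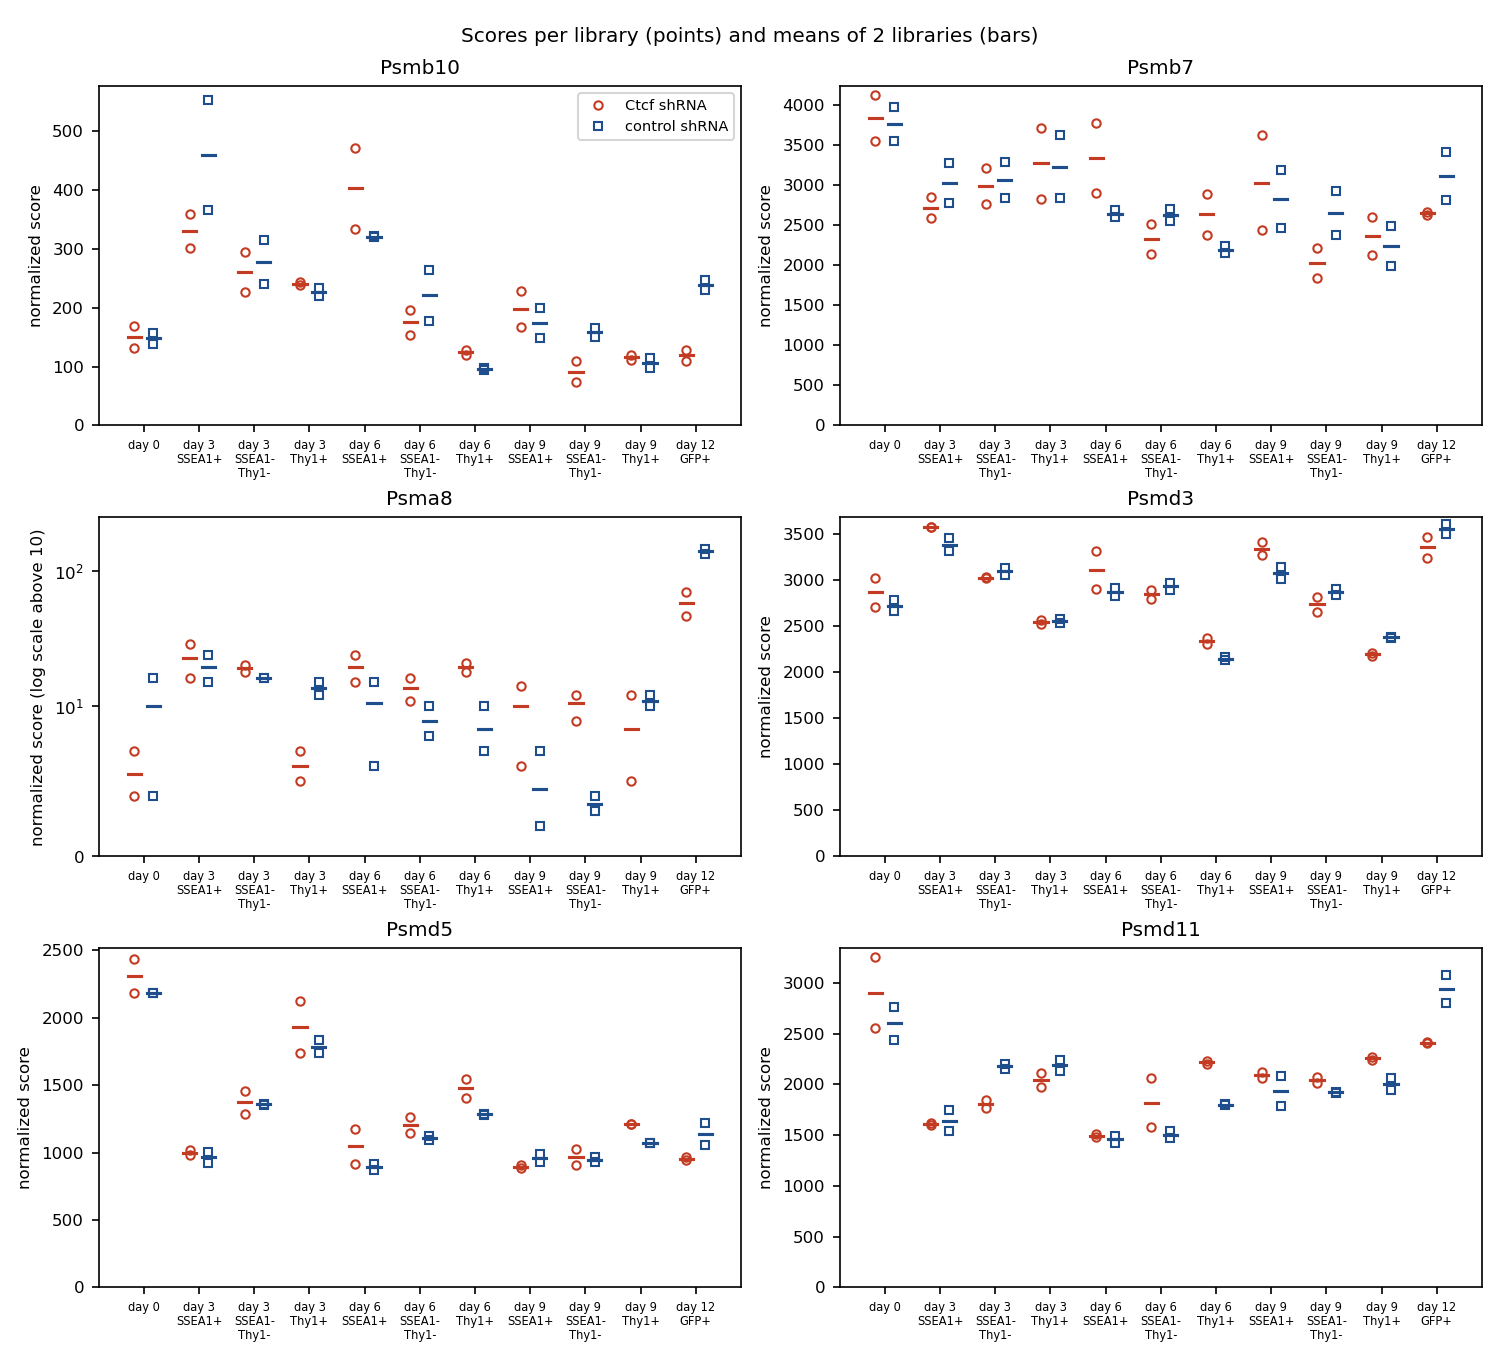
Scores of 6 genes in the 11 sorted populations, y axis in normalized score (log scale above 10 for Psma8), shCTCF left of shLuci in each population, points for libraries and bars for means of 2. Psma8 lies at 46 to 145 at day 12 and at no more than 29 before, and Psmd5 is highest at day 0.

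SSEA1+ cells of days 3, 6 and 9 and Thy1+ cells of the same days were each set against day 0, so these 6 comparisons and the one above share the same 2 day 0 libraries. In SSEA1+ cells, 3, 2 and 1 of the 36 genes were higher at days 3, 6 and 9, where 39.7%, 42% and 36.8% of all genes were. In the same cells 14, 13 and 17 were lower, where 32.5%, 35% and 36.1% of all genes were. Their median log2 fold changes were -0.18, -0.18 and -0.28, and those of all genes 0.09, 0.11 and 0.01. After median scaling 18, 19 and 17 were lower, and the shares of all genes were not counted under that scaling. Leaving out 1 library took the 14 of day 3 to 8 (replicate 2 of SSEA1+ cells), the 13 of day 6 to 8 (replicate 1 of SSEA1+ cells) and the 17 of day 9 to 11 (replicate 2 of day 0) or 9 (replicate 2 of SSEA1+ cells). The 2 higher genes of day 6 became 1 without replicate 1 of day 0 or replicate 1 of SSEA1+ cells, and the 1 of day 9 became 0 without replicate 2 of day 0 or replicate 2 of SSEA1+ cells.

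In Thy1+ cells, which keep the fibroblast marker, the lower calls of days 6 and 9 spread over most of the complex. Lower genes numbered 5, 30 and 27 of 36 at days 3, 6 and 9, where 20.1%, 32% and 34.5% of all genes were. Higher genes numbered 1, 0 and 0 by limma, where 22.3%, 28.9% and 30.3% of all genes were. The counts at an unadjusted p under 0.05 in either direction were 8, 31 and 29, against 6607, 8642 and 9137 of all 13451 genes. The median log2 fold change of the proteasome genes was -0.09, -0.47 and -0.49, and that of all genes -0.02, -0.05 and -0.06. The median size of change was 0.15, 0.47 and 0.49 in the proteasome genes, against 0.30, 0.46 and 0.50 in all genes. Changes of at least 2-fold numbered 0, 0 and 1 of 36, where 13.5%, 20.7% and 24.2% of all genes had them. The calls at days 6 and 9 numbered 24 to 26 and 22 to 27 when 1 library at a time was left out, and at day 3 the 5 lower genes became 3 without replicate 1 of day 0 or replicate 1 of Thy1+ cells. The 1 higher gene of day 3 was Psmb10 (220 and 234 in Thy1+ cells, against 157 and 139, 0.62, adjusted p = 0.0291), a call lost without any 1 of the 4 libraries (0.0567 to 0.151).

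At day 6 all 6 ATPases, 10 of 11 base and lid genes, 6 of 7 constitutive β genes and 5 of 8 α genes fell in Thy1+ cells. Psmb3, a structural β subunit, scored 1120 and 1176 in Thy1+ cells, against 2010 and 1949 at day 0 (log2 fold change -0.79, SE 0.187, adjusted p = 0.000736). Psmb7 scored 2146 and 2242, against 3548 and 3975 (-0.78, SE 0.184, adjusted p = 0.000743). Psmb5 scored 664 and 626, against 1041 and 1171 (-0.78, SE 0.178, adjusted p = 0.000517). In none of these genes did the groups overlap. The third catalytic gene, Psmb6, scored 895 and 860, against 1213 and 1239 (-0.48, SE 0.203, adjusted p = 0.0421), a call lost without each of the 4 libraries (0.0936 to 0.136) and after median scaling (0.0543). Psmb10 scored 94 and 98, against 157 and 139 (-0.62, SE 0.225, adjusted p = 0.0198), and that call was lost without replicate 1 of day 0 (adjusted p = 0.114) and without replicate 1 (0.0818) or 2 (0.0549) of the Thy1+ cells.

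Among the other roles in day 6 Thy1+ cells, Psmc3 scored 2034 and 2112, against 3144 and 3455 at day 0 (-0.67, SE 0.125, adjusted p = 4.83e-05). Psmd7, a lid subunit, scored 1582 and 1674, against 2409 and 2544 (-0.60, SE 0.121, adjusted p = 0.000114). Psma2 scored 7036 and 6900, against 10840 and 9626 (-0.55, SE 0.142, adjusted p = 0.00160). The Thy1+ libraries lay below both day 0 libraries in each of the 3 genes. The 6 genes that did not pass were Psma3, Psma5, Psma8, Psmb1, Psmd1 and Psmd10. Of the calls, that of Psma7 was lost without each of the 4 libraries (0.0543 to 0.107), that of Psmd6 without replicate 2 of day 0 (0.239) or replicate 1 (0.0658) or 2 (0.180) of the Thy1+ cells and after median scaling (0.0586), and that of Psma4 without replicate 2 of day 0 (0.132) or of the Thy1+ cells (0.120). Psmb4 (0.120) and Psmc5 (0.0733) were lost without replicate 2 of day 0, and Psmd14 without replicate 1 of day 0 (0.112) or of the Thy1+ cells (0.0937).

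At day 9 all 6 ATPases and all 11 base and lid genes fell in Thy1+ cells, with 5 of 8 α genes and 3 of 7 constitutive β genes. The call of Psmd1 was lost without either replicate of day 0 (0.0857 and 0.0565) or replicate 1 of the Thy1+ cells (0.117), after quantile normalization (0.0772) and after median scaling (0.185). Psmc5, Psmd6 and Psmc1 were lost without replicate 2 of day 0 (0.0890, 0.0754 and 0.0879) or of the Thy1+ cells (0.115, 0.0554 and 0.0985), Psmc1 after median scaling (0.0510), and Psmd3 without replicate 1 of day 0 (0.0525) and after median scaling (0.114). Psma7 was lost without either replicate of day 0 (0.0656 and 0.102), replicate 2 of the Thy1+ cells (0.156) and after median scaling (0.0727), and Psma6 without replicate 2 of the Thy1+ cells (0.0507). Psmc6 scored 7598 and 8470, against 12858 and 13180 at day 0 (-0.70, SE 0.115, adjusted p = 8.00e-06). Psmd13, a lid subunit, scored 1240 and 1245, against 1903 and 2021 (-0.66, SE 0.0759, adjusted p = 3.01e-08). Psma1 scored 1906 and 1786, against 2760 and 3062 (-0.66, SE 0.115, adjusted p = 1.97e-05). The separation between groups was complete in these genes. Psmb7 scored 2482 and 1992, against 3548 and 3975 (-0.76, SE 0.184, adjusted p = 0.000879), and Psmb5 765 and 681, against 1041 and 1171 (-0.61, SE 0.178, adjusted p = 0.00402). Psmb6 scored 1074 and 855, against 1213 and 1239, and Psmb10 114 and 98, against 157 and 139, with adjusted p of 0.127 and 0.0638. The summed fibroblast markers were 175272 and 166726 in Thy1+ cells of day 6 and 260713 and 272581 in those of day 9, against 74319 and 66927 at day 0, and whether the makeup of the Thy1+ gate bears on the proteasome scores was not tested.

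Psmd5 was lower than at day 0 in each population compared, with control-hairpin scores of 2180 and 2186 at day 0, 1738 and 1832 in Thy1+ and 1007 and 920 in SSEA1+ cells of day 3, 1286 and 1278 in Thy1+ and 912 and 872 in SSEA1+ cells of day 6, 1072 and 1068 in Thy1+ and 988 and 928 in SSEA1+ cells of day 9, and 1219 and 1056 at day 12. Double-negative cells were not set against day 0. In Thy1+ cells of day 3 the Psmd5 call was lost without either replicate of day 0 (log2 fold changes -0.293 and -0.289). It was also lost there without replicate 1 of the Thy1+ cells (-0.253). The log2 fold changes of Psmd5 against day 0 in SSEA1+ cells were -1.18, -1.29 and -1.19 at days 3, 6 and 9 (limma, adjusted p = 2.21e-11, 2.55e-12 and 2.07e-11). At day 3 of SSEA1+ cells it was joined by Psmd8 (2244 and 1789, against 3756 and 3536, -0.86, adjusted p = 3.80e-08) and Psmd11 (1752 and 1537, against 2764 and 2438, -0.66, adjusted p = 1.22e-06), 2 lid genes. Psmd11 is known for a high level in human embryonic stem cells.

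The direct comparison of SSEA1+ with Thy1+ cells of the same day sets cells moving towards pluripotency against cells that keep the fibroblast marker. At day 3, 3 of 36 genes were higher and 9 lower in SSEA1+ cells, where 35.4% of all genes were higher and 28.8% lower. At day 6, 15 were higher and 2 lower, where 42.4% were higher and 33.8% lower. At day 9, 12 were higher and 1 lower, where 38.8% were higher and 30% lower. The median log2 fold changes were -0.09, 0.27 and 0.18 for the proteasome genes and 0.09, 0.15 and 0.13 for all genes. After median scaling those of the proteasome genes were -0.15, 0.13 and 0.09, and without replicate 2 of the SSEA1+ cells that of day 3 was 0.004. On each of the 3 days the share of proteasome genes called, higher or lower, was below that of all genes. At day 9 the 12 higher genes became 5 without replicate 1 of the SSEA1+ cells and 4 without replicate 2 of the Thy1+ cells, and median scaling gave 8 higher and 2 lower.

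Psmb10 was higher in SSEA1+ cells at each of the 3 days. At day 3 it scored 553 and 367 in SSEA1+ cells, against 220 and 234 in Thy1+ cells. At day 6 it scored 320 and 322, against 94 and 98. At day 9 it scored 199 and 148, against 114 and 98. The SSEA1+ libraries lay above the Thy1+ libraries on every day. The log2 fold changes were 0.99, 1.73 and 0.69 (SE 0.225 each, limma adjusted p = 0.000419, 1.02e-07 and 0.00810). The day 9 call was lost without replicate 1 of the SSEA1+ cells (adjusted p = 0.126) and without replicate 2 of the Thy1+ cells (0.0710).

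None of the 3 constitutive catalytic genes passed in the same comparisons. Psmb7, the partner of Psmb10, scored 3270 and 2770 in SSEA1+ cells, against 2832 and 3626 in Thy1+ cells at day 3, 2600 and 2683, against 2146 and 2242, at day 6, and 3192 and 2460, against 2482 and 1992, at day 9. Psmb5 scored 1326 and 932, against 910 and 1078, at day 3, 674 and 755, against 664 and 626, at day 6, and 968 and 779, against 765 and 681, at day 9. Psmb6 scored 1208 and 1062, against 1046 and 1264, at day 3, 886 and 942, against 895 and 860, at day 6, and 1452 and 1041, against 1074 and 855, at day 9. At day 6 the 95% intervals of their log2 fold changes were -0.11 to 0.65 for Psmb7, -0.22 to 0.51 for Psmb5 and -0.36 to 0.48 for Psmb6, each below the 1.73 of Psmb10. Day 6 was the day with the largest gap: the log2 ratio of Psmb10 to Psmb7 differed by 1.46 then and by 0.36 at day 9. That a gene did not pass while Psmb10 did is not by itself a difference between them.

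The log2 ratio of Psmb10 to Psmb7 was -2.74 ± 0.248 in SSEA1+ and -3.81 ± 0.189 in Thy1+ cells at day 3, -3.04 ± 0.0257 in SSEA1+ and -4.50 ± 0.00255 in Thy1+ cells of day 6, and -4.02 ± 0.0347 in SSEA1+ and -4.38 ± 0.0714 in Thy1+ cells of day 9 (SD, n = 2 each), differences of 1.08, 1.46 and 0.36. These are levels of 1 gene relative to another and carry no test. Ordered by its mean, Psmb10 was highest in SSEA1+ cells of day 3 (553 and 367), followed by SSEA1+ cells of day 6 (320 and 322) and double-negative cells of day 3 (315 and 240). GFP+ cells of day 12 (248 and 230), Thy1+ cells of day 3 (220 and 234) and double-negative cells of day 6 (264 and 178) came next, with overlapping ranges. SSEA1+ cells of day 9 (199 and 148), double-negative cells of day 9 (166 and 150) and day 0 cells (157 and 139) overlapped, and Thy1+ cells of day 9 (114 and 98) and day 6 (94 and 98) were lowest.

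Summed fibroblast markers were lower in SSEA1+ than in Thy1+ cells on all 3 days (4364 and 4705, against 81086 and 75350, at day 3, 2229 and 2288, against 175272 and 166726, at day 6, and 30816 and 31107, against 260713 and 272581, at day 9). Summed scores of 11 macrophage markers, another source of immunoproteasome RNA, were 1623 and 1759 in SSEA1+ cells, against 2395 and 2290 in Thy1+ cells at day 6, where Psmb10 was higher in SSEA1+ cells. Of these 11, 3 were higher and 2 lower in SSEA1+ cells. The 13 interferon-response genes summed to 2660 and 2852 in SSEA1+ cells, against 1615 and 1743 in Thy1+ cells, although 9 of the 13 were lower and 2 higher, with a median log2 fold change of -0.999. Their part in the Psmb10 difference was not tested.

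**Figure D3:**
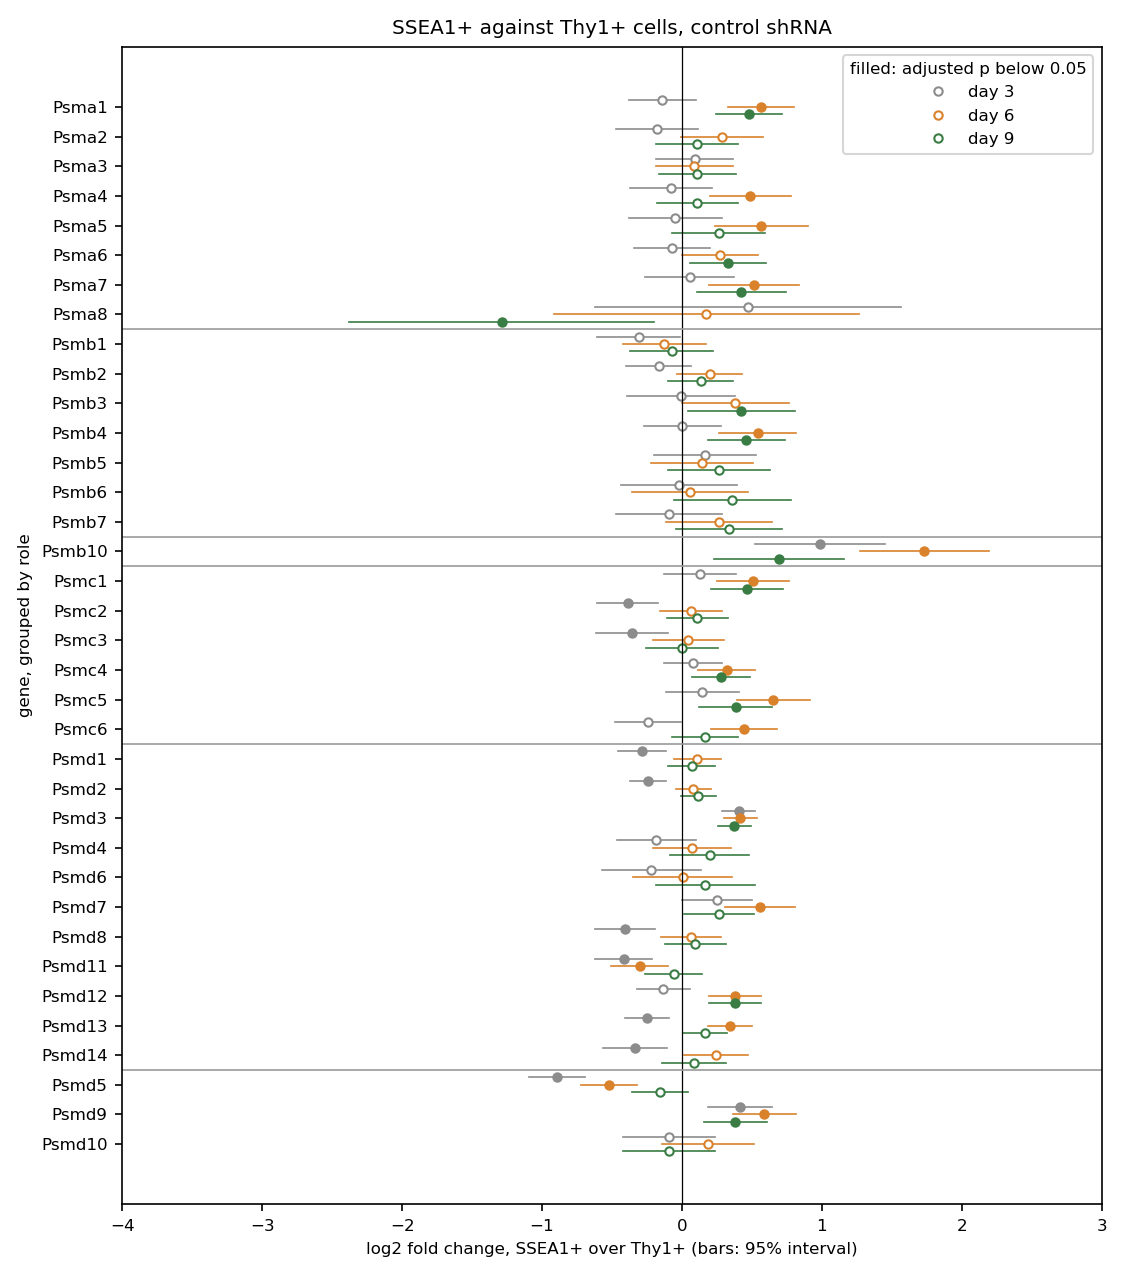
Log2 fold change of SSEA1+ over Thy1+ control-hairpin cells on the x axis for each proteasome gene on the y axis, at days 3, 6 and 9, with 95% intervals and filled points for adjusted p below 0.05. Psmb10 lies right of 0 on all 3 days and Psmd5 left of 0 on days 3 and 6.

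Among α genes in SSEA1+ cells of day 6, 4 of 8 rose: Psma5, Psma1, Psma7 and Psma4. Psma5 scored 2516 and 2144 in SSEA1+ cells, against 1607 and 1528 in Thy1+ cells (0.57, SE 0.162, adjusted p = 0.00260). Psma1 scored 3302 and 3000, against 2186 and 2066 (0.57, SE 0.115, adjusted p = 7.92e-05). Both genes were apart in all libraries. Psma1 also rose at day 9 (2554 and 2587, against 1906 and 1786, 0.48, adjusted p = 0.000661), and 0 of 8 α genes passed at day 3. The 1 lower gene of day 9 was Psma8, with 2 and 7 in SSEA1+ cells, against 12 and 10 in Thy1+ cells (-1.29, SE 0.531, adjusted p = 0.0340), a call lost without replicate 1 of the SSEA1+ cells (0.425) or replicate 1 (0.127) or 2 (0.0681) of the Thy1+ cells. The call of Psma7 at day 6 was lost without replicate 2 of the SSEA1+ cells (adjusted p = 0.0555).

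Among constitutive β genes in SSEA1+ cells of day 6, Psmb4 alone of 7 rose, with 2452 and 2188, against 1602 and 1582 in Thy1+ cells (0.54, SE 0.134, adjusted p = 0.000699). It also rose at day 9 (2502 and 2256, against 1876 and 1590, 0.46, adjusted p = 0.00362), where the adjusted p was 0.0714 without replicate 2 of the Thy1+ cells. Psmb3 rose by 0.43 at day 9, a call lost without replicate 1 of the SSEA1+ cells (adjusted p = 0.446) and without replicate 1 (0.0618) or 2 (0.197) of the Thy1+ cells. Psmb1 and Psmb2 passed on none of the 3 days.

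Of the 6 ATPases, 4 rose at day 6 (Psmc1, Psmc4, Psmc5 and Psmc6), 3 rose at day 9 (Psmc1, Psmc4 and Psmc5) and 2 fell at day 3 (Psmc2 and Psmc3). Psmc5 scored 1864 and 1903 in SSEA1+ cells of day 6, against 1208 and 1185 in Thy1+ cells (0.65, SE 0.127, adjusted p = 4.34e-05). Psmc2 scored 2552 and 2664 in SSEA1+ cells of day 3, against 3162 and 3684 in Thy1+ cells (-0.39, SE 0.107, adjusted p = 0.00259), and 0.0671 without replicate 2 of the Thy1+ cells. Psmc1 at day 9 scored 2646 and 2556, against 1960 and 1816 (0.46, SE 0.125, adjusted p = 0.00201). The groups did not overlap in any of the 3. The call of Psmc3 at day 3 was lost without replicate 1 of the SSEA1+ cells (0.0633) or replicate 2 of the Thy1+ cells (0.206). That of Psmc4 was lost at day 6 without replicate 1 of the Thy1+ cells (0.0711) and at day 9 without replicate 1 of the SSEA1+ cells (0.165) or replicate 2 of the Thy1+ cells (0.0957), as that of Psmc5 was at day 9 (0.131 and 0.0878).

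Of the 11 base and lid genes, 4 rose and 1 fell at day 6. Psmd7 scored 2362 and 2436 in SSEA1+ cells, against 1582 and 1674 in Thy1+ cells (0.56, SE 0.121, adjusted p = 0.000166), and Psmd12 (0.38) and Psmd13 (0.35) rose with it. Psmd11 scored 1496 and 1424, against 1795 and 1807 (-0.30, SE 0.0990, adjusted p = 0.00748), a call lost without replicate 2 of the SSEA1+ cells (adjusted p = 0.0551). At day 3 Psmd11 scored 1752 and 1537, against 2134 and 2244 (-0.42, SE 0.0990, adjusted p = 0.000675). So the SSEA1+ libraries were the lower ones on both days. Of these genes 1 rose and 6 fell at day 3 and 2 rose at day 9, Psmd12 (2744 and 2624, against 2116 and 2012, 0.38, SE 0.0915, adjusted p = 0.000679) and Psmd3.

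Psmd3 rose on all 3 days. It scored 3310 and 3454 in SSEA1+ cells, against 2572 and 2534 in Thy1+ cells at day 3 (0.41, adjusted p = 7.83e-07), 2827 and 2915, against 2130 and 2166, at day 6 (0.42, adjusted p = 2.62e-07), and 3016 and 3143, against 2372 and 2381, at day 9 (0.37, adjusted p = 2.40e-06), with SE 0.0574 each by limma. Every SSEA1+ library exceeded every Thy1+ library of its day. The chaperone Psmd5 went the other way at day 3 (-0.89, adjusted p = 1.00e-08) and day 6 (-0.52, adjusted p = 2.59e-05), and the chaperone Psmd9 rose at day 3 (458 and 401, against 296 and 348, 0.42, adjusted p = 0.00185), day 6 (418 and 420, against 266 and 291, 0.59, adjusted p = 2.80e-05) and day 9 (421 and 367, against 329 and 276, 0.38, adjusted p = 0.00342). The Psmd9 call was lost at day 3 without replicate 1 of the Thy1+ cells (0.0553) and at day 9 without replicate 1 of the SSEA1+ cells (0.0681) or replicate 2 of the Thy1+ cells (0.0930).

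The last step, GFP+ cells of day 12 against SSEA1+ cells of day 9, showed 7 genes higher and 2 lower of 36, where 25.5% of all genes were higher and 33.6% lower, with medians of 0.19 and -0.06. The count of higher genes was 4 without replicate 1 of day 12 or replicate 2 of day 9, 13 without replicate 1 of day 9 and 13 after median scaling. Beside Psma8, the lid gene Psmd11 scored 2806 and 3082 at day 12, against 1786 and 2084 at day 9 (log2 fold change 0.61, SE 0.0990, adjusted p = 8.38e-06). The base scaffold Psmd1 scored 5354 and 5836, against 4081 and 4512 (0.38, SE 0.0823, adjusted p = 0.000281), and Psmd3 3499 and 3610, against 3016 and 3143 (0.21). The day 12 libraries were above those of day 9 in all 3. Psmd2, Psmc4 and Psmd5 rose, and Psmd8 (2380 and 2502, against 3011 and 2947) and Psmd9 (324 and 300, against 421 and 367) fell, and each of these 5 calls was lost without some 1 library. The adjusted p of Psmd2, Psmc4, Psmd5 and Psmd8 was 0.171, 0.0666, 0.327 and 0.112 without replicate 1 of day 12, and 0.204, 0.0964, 0.173 and 0.0560 without replicate 2 of day 9. That of Psmd8 was 0.0844 without replicate 1 of day 9, and that of Psmd9 was 0.0925 without replicate 2 of day 12 and 0.146 without replicate 1 of day 9.

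The Ctcf hairpin was compared with the control hairpin within each population. Averaged over the 11 populations, 1 proteasome gene was higher and 1 lower, where 26.2% of all genes were higher and 25.8% lower: Psmd8 rose by 0.11 log2 units (limma adjusted p = 0.00680) and Psma1 fell by 0.09 (0.0321), and the Psma1 call was lost in 17 of the 44 fits that each left out 1 library. At day 0, 1 gene was higher and 0 lower, where 2.93% and 3.75% of all genes were. This was Psmd10, with 1460 and 2152 under shCTCF, against 1222 and 1240 under shLuci (0.53, SE 0.160, adjusted p = 0.0456), and 0.698 without replicate 2 of shCTCF, 0.165 without replicate 1 of shLuci and 0.155 without its replicate 2. At day 3, limma called 0 genes in either direction, where 1.46% were higher and 2.56% lower in Thy1+ cells, 3.56% and 3.22% in SSEA1+ cells, and 2.34% and 2.54% in double-negative cells. At an unadjusted p under 0.05 the counts were 0, 2 and 1, against 2012, 2478 and 2152 of all 13451 genes.

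In Thy1+ cells of day 6, 2 genes were higher and 0 lower by limma, where 6.83% and 7.56% of all genes were. All 36 of 36 log2 fold changes were positive, and their median was 0.20 against 0.02 over all genes. The share of positive values over all genes was not counted. The median shift between replicates was -0.02 and -0.006 in these shCTCF and shLuci groups, but 0.31 in shCTCF SSEA1+ cells of day 6. In the Thy1+ cells summed fibroblast markers were 113972 and 112264 under shCTCF, against 175272 and 166726 under shLuci, and their part was not tested. An unadjusted p under 0.05 was found for 14 of the 36, against 3785 of all 13451 genes. Psmd8 scored 2980 and 3440 under shCTCF, against 2409 and 2554 under shLuci (0.37, SE 0.105, adjusted p = 0.0184), and Psmd11 2202 and 2234, against 1795 and 1807 (0.30, SE 0.0990, adjusted p = 0.0412). In SSEA1+ cells 3 genes were higher and 0 lower, where 11.2% and 11% of all genes were. Psmb5 scored 970 and 1297 under shCTCF, against 674 and 755 under shLuci (0.65, SE 0.178, adjusted p = 0.00915), Psmb3 rose by 0.58 (0.0273) and Psma3 by 0.38 (0.0409). The median over the 36 genes in SSEA1+ cells was 0.14, and 0.01 without replicate 2 of shCTCF. All shCTCF libraries were above the shLuci libraries in Psmd8, Psmd11 and Psmb5. In double-negative cells 2 genes were higher (Psmd8 by 0.37 and Psmd11 by 0.26) and 1 lower (Psma1 by -0.32), where 20.2% and 21.9% of all genes were. None of the day 6 calls held in every fit that left out 1 library. In Thy1+ cells Psmd11 had an adjusted p of 0.125 to 0.170 without each of the 4 libraries, Psmd8 had 0.225, 0.137 and 0.0514 without replicate 2 of shCTCF, replicate 1 of shLuci and replicate 2 of shLuci, and the count of 2 became 0 without replicate 2 of shCTCF or either replicate of shLuci. In SSEA1+ cells Psmb5 had an adjusted p of 0.182 without replicate 2 of shCTCF and 0.0875 without replicate 1 of shLuci, Psmb3 and Psma3 had 0.0951 to 0.430 without replicate 2 of shCTCF or either replicate of shLuci, and the count of 3 ran between 0 and 8, with 8 without replicate 1 of shCTCF. In double-negative cells the adjusted p without replicate 2 of shLuci was 0.0773 for Psmd8 and 0.0709 for Psmd11, and without replicate 2 of shCTCF it was 0.642 for Psmd11 and 0.219 for Psma1.

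At day 9, limma called 0 genes in either direction in Thy1+ cells, where 7.51% of all genes were higher and 12.1% lower, and in SSEA1+ cells, where 4.8% and 9.04% were. An unadjusted p under 0.05 was found for 1 gene in each, against 4328 and 3352 of all 13451 genes. In double-negative cells 0 were higher and 6 lower, where 14.6% and 13.4% of all genes were. Psmb10 scored 110 and 73 under shCTCF, against 166 and 150 under shLuci (-0.81, SE 0.225, adjusted p = 0.00843), and 0.183 without replicate 2 of shCTCF and 0.0722 without replicate 1 of shLuci. Psma2 scored 5224 and 4784, against 8493 and 7110 (-0.64, SE 0.142, adjusted p = 0.00154). Psmb2 scored 1032 and 1003, against 1274 and 1444 (-0.41, SE 0.113, adjusted p = 0.00748). The shCTCF libraries were lower in all 3 genes, and of the 6 calls Psma2 held in every fit without 1 library. Psmd9, Psma3 and Psma1 were the other lower genes (-0.40, -0.36 and -0.31), and the count was 2 to 3 without 1 library. Psmb2 had an adjusted p of 0.0543 without replicate 2 of shCTCF and 0.102 without replicate 2 of shLuci, Psmd9 0.0764 without replicate 1 of shCTCF and 0.0586 without replicate 2 of shLuci, Psma3 0.110 to 0.192 without each library, and Psma1 0.127 to 0.296 without replicate 1 of shCTCF or either replicate of shLuci. Summed fibroblast markers were 75165 and 78781 under shCTCF, against 81583 and 81130 under shLuci. The pluripotency markers summed to 1013 and 1110 under shCTCF, against 1903 and 1999 under shLuci. Whether the makeup of these cells bears on the lower scores was not tested.

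At day 12, 0 of 36 genes were higher and 11 lower under shCTCF, where 24.6% of all genes were higher and 24.7% lower. Of the 36 log2 fold changes 34 were negative, with a median of -0.21, against -0.07 over all genes. Psmb10 scored 110 and 128 under shCTCF, against 248 and 230 under shLuci (-1.003, SE 0.225, adjusted p = 0.000635). The ATPase Psmc4 scored 1364 and 1461, against 1894 and 1762 (-0.37, SE 0.1004, adjusted p = 0.00343). These 2 genes were separated in all libraries and passed in every fit without 1 library. The log2 ratio of Psmb10 to Psmb7 was -4.47 ± 0.141 under shCTCF and -3.69 ± 0.123 under shLuci (SD, n = 2 each).

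The other 9 calls of day 12 were each lost in at least 1 fit without 1 library. Psma8 scored 46 and 70 under shCTCF, against 134 and 145 under shLuci (-1.28, SE 0.531, adjusted p = 0.0475), with adjusted p of 0.244 and 0.0604 without replicate 1 or 2 of shCTCF and 0.116 and 0.144 without replicate 1 or 2 of shLuci. Psmb3 scored 1412 and 1306, against 2256 and 1844 (-0.59, SE 0.187, adjusted p = 0.0113), with 0.0748 without replicate 2 of shCTCF and 0.131 without replicate 1 of shLuci. Psmb6 scored 1177 and 1142, against 1888 and 1434 (-0.50, SE 0.203, adjusted p = 0.0412), with 0.103, 0.136 and 0.337 without replicate 1 or 2 of shCTCF or replicate 1 of shLuci. In each of these genes both shCTCF libraries were the lower ones. Psmd6, a lid gene, scored 1357 and 1251, against 1868 and 1628 (-0.42, SE 0.173, adjusted p = 0.0460), with 0.0546 to 0.246 without each of the 4 libraries. Psma6 (-0.44), Psmd4 (-0.37), Psma1 (-0.35), Psmd11 (-0.29) and Psmd5 (-0.25) were the other lower genes. Without replicate 1 of shLuci the adjusted p was 0.0685 for Psma6, 0.199 for Psmd4, 0.0706 for Psma1 and 0.337 for Psmd5, and without replicate 1 of shCTCF 0.0626 for Psmd4, 0.0768 for Psma1, 0.0754 for Psmd11 and 0.0840 for Psmd5. Without replicate 2 of shCTCF it was 0.123 for Psmd4, 0.0669 for Psmd11 and 0.136 for Psmd5, and without replicate 2 of shLuci 0.155 for Psmd11. Psmb5 scored 860 and 819, against 1018 and 928, and Psmb7 2631 and 2664, against 3412 and 2806, with adjusted p of 0.331 and 0.318. The count of 11 became 4 without replicate 1 or replicate 2 of shCTCF, 3 without replicate 1 of shLuci and 7 after median scaling.

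In the same comparison the summed fibroblast markers were 34137 and 33916 under shCTCF, against 11738 and 12411 under shLuci, and the pluripotency markers 18729 and 18529, against 33552 and 33376. So markers of both cell types differed between the hairpins in these GFP+ cells, and their part in the lower proteasome scores was not tested. The knockdown effect in SSEA1+ cells minus that in Thy1+ cells over days 3, 6 and 9 passed for 0 genes in either direction by limma, where 5.41% of all genes were higher and 4.29% lower. At an unadjusted p under 0.05 there were 3 proteasome genes, against 3204 of all 13451 genes.

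**Figure D4:**
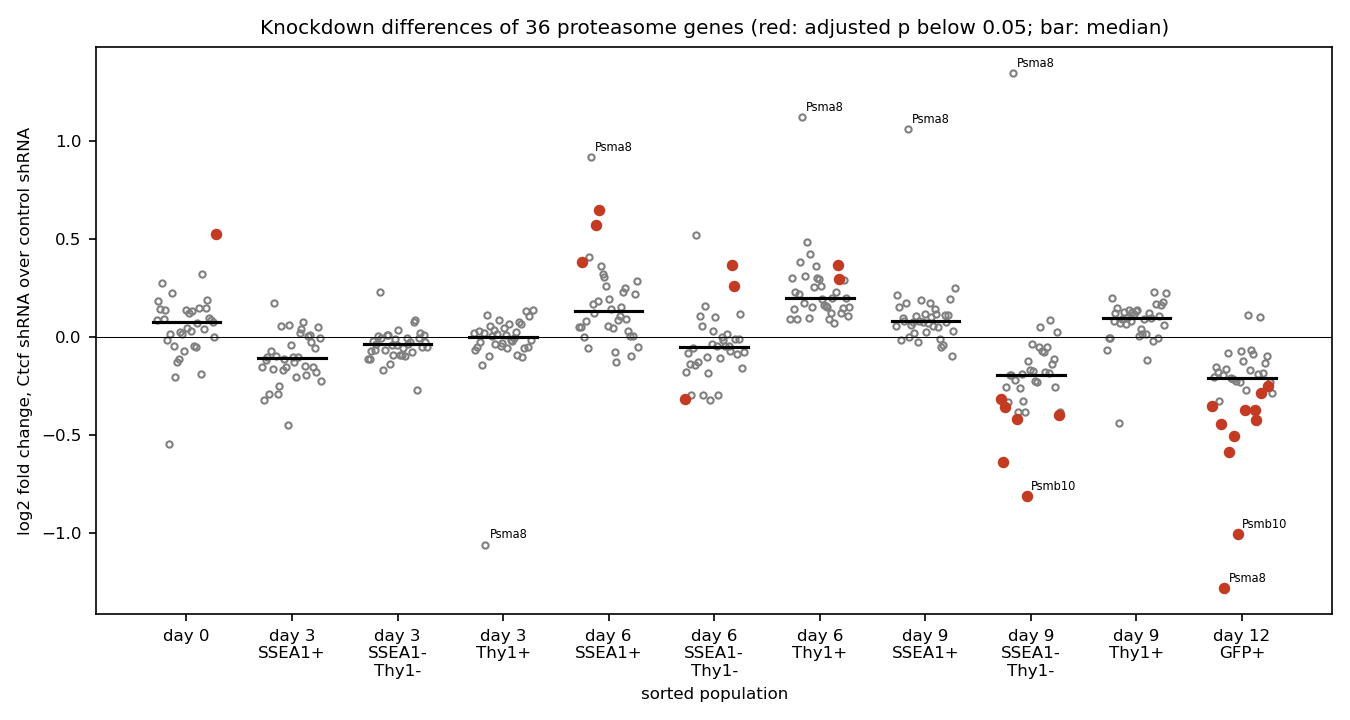
Log2 fold change of shCTCF over shLuci (y axis) for each of the 36 genes in the 11 sorted populations (x axis), red points for adjusted p below 0.05 and bars for medians. The points of Thy1+ cells of day 6 all lie above 0, and 34 of those of day 12 below 0.

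Other genes of the pathway were taken from lists chosen with earlier results of these data known, and the counts below stand beside the same 40.1% of all genes higher and 40.2% lower at day 12 against day 0. Of 8 measured assembly chaperones, 3 of which (Psmd5, Psmd9 and Psmd10) are among the 36 genes above, 3 rose and 2 (Psmd5 and Psmd9) fell. Psmg4, which helps build the α ring, scored 306 and 233, against 85 and 68 (1.80, adjusted p = 3.25e-07), Psmg1 rose by 1.12, and Pomp, which guides β-ring assembly, did not pass (-0.25, adjusted p = 0.257). Of 5 activators and inhibitors 4 rose: Psme4 (0.92) and Psme3 (0.83), which cap the core without ATP, Psme1 (604 and 588, against 344 and 332, 0.82, adjusted p = 7.72e-07) and Psme2 (0.45, adjusted p = 0.0490, lost without either replicate of day 0 or replicate 1 of day 12), which form the interferon-induced PA28 cap. Of 14 receptors and deubiquitinases 6 rose (Ubqln4 by 1.499 and Ddi2 by 0.97) and 5 fell (Sem1 by -1.29 and Txnl1 by -0.61). Of 9 transcription factors of proteasome genes 6 rose (Foxo4 by 1.61 and Nfyb by 1.505) and 2 fell (Stat3 by -0.69 and Nfe2l2 by -0.31), and Nfe2l1 did not pass (2792 and 2654, against 2860 and 3077, -0.12, adjusted p = 0.109). Of 10 antigen-processing genes 2 rose (Tapbp by 0.95 and H2-K1 by 0.25) and 8 fell (B2m by -2.47, Tap2 by -1.74 and Tap1 by -0.45). Of 13 interferon-response genes 8 rose (Oasl2 by 4.45 and Irf1 by 3.72) and 0 fell. The calls of Nfe2l2 and H2-K1 were lost without replicate 1 of day 0 (0.140 and 0.0806) or replicate 1 of day 12 (0.284 and 0.161), and that of H2-K1 also without replicate 2 of day 0 (0.0522).

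In SSEA1+ against Thy1+ cells of day 6, where 42.4% of all genes were higher and 33.8% lower, 5 of 8 assembly chaperones rose (Psmg4 by 1.83 and Psmg3 by 1.33, with Psmd9 among the 5) and 1 fell (Psmd5), and Pomp did not pass (0.18, adjusted p = 0.422). Of 5 activators and inhibitors 2 rose (Psme3 by 0.75 and the inhibitor Psmf1 by 0.37) and 1 fell (Psme2, 196 and 191, against 381 and 335, -0.88), and Psme1 did not pass (-0.14), but was called lower after median scaling (-0.28, adjusted p = 0.0314), where Psmf1 (0.101) and Xaf1 (0.0727) lost their calls. So the scores of Psme2 and Psmb10, both known to be induced by interferon, lay on opposite sides. Of 14 receptors and deubiquitinases 8 rose (Uchl5 by 1.199 and Ubqln4 by 0.74), and of 9 transcription factors 6 rose (Foxo4 by 1.34 and Nfyb by 1.02) and 3 fell (Stat3 by -1.98, Nfe2l2 by -1.14 and Nfe2l1 by -0.65). Of 10 antigen-processing genes 1 rose (H2-K1 by 0.56) and 9 fell (Tap2 by -2.32, B2m by -1.59 and Tap1 by -0.33). Of 13 interferon-response genes 2 rose (Bst2 by 2.98 and Xaf1 by 0.49) and 9 fell, with Gbp2 at 9 on average in SSEA1+ and 53 in Thy1+ cells and Ifit1 listed at 0 in both SSEA1+ libraries. Without replicate 1 of the Thy1+ cells the adjusted p was 0.273 for Psmf1, 0.102 for Tap1 and 0.230 for Xaf1. Without replicate 1 of the SSEA1+ cells it was 0.0607 for Psmf1, and without their replicate 2 0.0915 for Tap1 and 0.0566 for Xaf1.

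Under the Ctcf hairpin at day 12, where 24.6% of all genes were higher and 24.7% lower, 4 of 8 assembly chaperones fell, Psmd5 among them, and 0 rose (Psmg4, 106 and 114 under shCTCF, against 306 and 233, -1.27, and Psmg3 by -0.87), and Pomp did not pass (-0.31). None of 5 activators passed (Psme1 -0.11 and Psme2 -0.18). Of 14 receptors and deubiquitinases 2 rose (Ecpas by 0.52 and Zfand5 by 0.33) and 2 fell (Ubqln4 by -0.61 and Adrm1 by -0.31). Of 9 transcription factors 3 rose (Nfe2l2 by 0.71, Stat3 by 0.54 and Nfe2l1, 3536 and 3496, against 2792 and 2654, by 0.37, adjusted p = 0.000119) and 3 fell (Nfyb by -0.63 and Nfya by -0.41 among them). Of 10 antigen-processing genes 7 rose (H2-D1 by 1.31, B2m by 1.21 and Tap1 by 0.77) and 0 fell, while Psmb10 fell, and of 13 interferon-response genes 3 rose (Irf7 by 1.33 and Gbp3 by 1.05 among them). Without replicate 1 of shLuci the adjusted p was 0.113 for Psmg3, 0.263 for Zfand5 and 0.0581 for Adrm1, and without replicate 1 of shCTCF 0.0510 for Psmg3, 0.0531 for Zfand5 and 0.0850 for Gbp3. Without replicate 2 of shCTCF it was 0.134 for Zfand5 and 0.0571 for Irf7.

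At day 10 all 3 immunoproteasome genes were measured. The 2 control columns differed far less than the other replicate pairs (mean chi-square per gene, scores taken as counts, 1.72, against 26.5 and 33.1 for the other pairs) and were averaged and counted as 1 sample, although the true counting noise of the scores is unknown (kept as 2 samples, they also gave 0 calls), so the 5 samples left 2 residual degrees of freedom. Limma called 0 of 38 proteasome genes in either direction in each comparison. For OSKM with CTCF and Smarca5 hairpin against OSKM with CTCF, 0% of all genes were higher and 0% lower. For it against the control vector 0.0387% were higher and 0% lower, and for OSKM with CTCF against the control vector 0.0387% and 0%. At an unadjusted p under 0.05 the counts of proteasome genes were 0, 1 and 1, against 180, 558 and 783 of all 12915 genes tested.

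Psmb8 scored 297 and 294 with CTCF and the Smarca5 hairpin, 256 and 238 with CTCF, and 198 and 184 in the control columns. Psmb9 scored 204 and 214, 178 and 123, and 130 and 136 in the same order of groups. Psmb10 scored 394 and 409, 512 and 374, and 286 and 296. Psmb8 was thus in 3 separate steps, Psmb9 with CTCF alone overlapped the control columns, and Psmb10 lay above the control columns in all 4 treated libraries. Against the control vector, the log2 fold changes with CTCF and the Smarca5 hairpin were 0.63 for Psmb8 (SE 0.148, unadjusted p = 0.00889, adjusted p = 0.776), 0.65 for Psmb9 (SE 0.274) and 0.46 for Psmb10 (SE 0.219). With CTCF alone they were 0.37 for Psmb8 (SE 0.148), 0.15 for Psmb9 (SE 0.274) and 0.59 for Psmb10 (SE 0.219, unadjusted p = 0.0458, adjusted p = 0.810).

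The constitutive partners were closer to the control columns. Psmb5 scored 1496 and 1645 with CTCF and the Smarca5 hairpin, 1755 and 1446 with CTCF, and 1426 and 1426 in the control columns. Psmb6 scored 2255 and 2474, 2806 and 2300, and 2246 and 2300. Psmb7 scored 5205 and 8465, 7899 and 5414, and 6132 and 5969. The replicates of Psmb7 lay on both sides of the controls in both treated groups. Averaged over the 3 pairs Psmb8 to Psmb5, Psmb9 to Psmb6 and Psmb10 to Psmb7, the log2 ratio was -3.31 ± 0.204 with CTCF and the Smarca5 hairpin and -3.56 ± 0.00576 with CTCF (SD, n = 2 each), and -3.78 in the control columns. The differences from the control vector were 0.47 and 0.23, a description with no test. The 17 interferon-response genes summed to 17033 and 16427, 15245 and 14650, and 14003 and 13963 in these groups, and the pluripotency markers to 11276 and 9472, 15337 and 11082, and 6898 and 6960, and their part in the ratios was not tested.

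**Figure D5:**
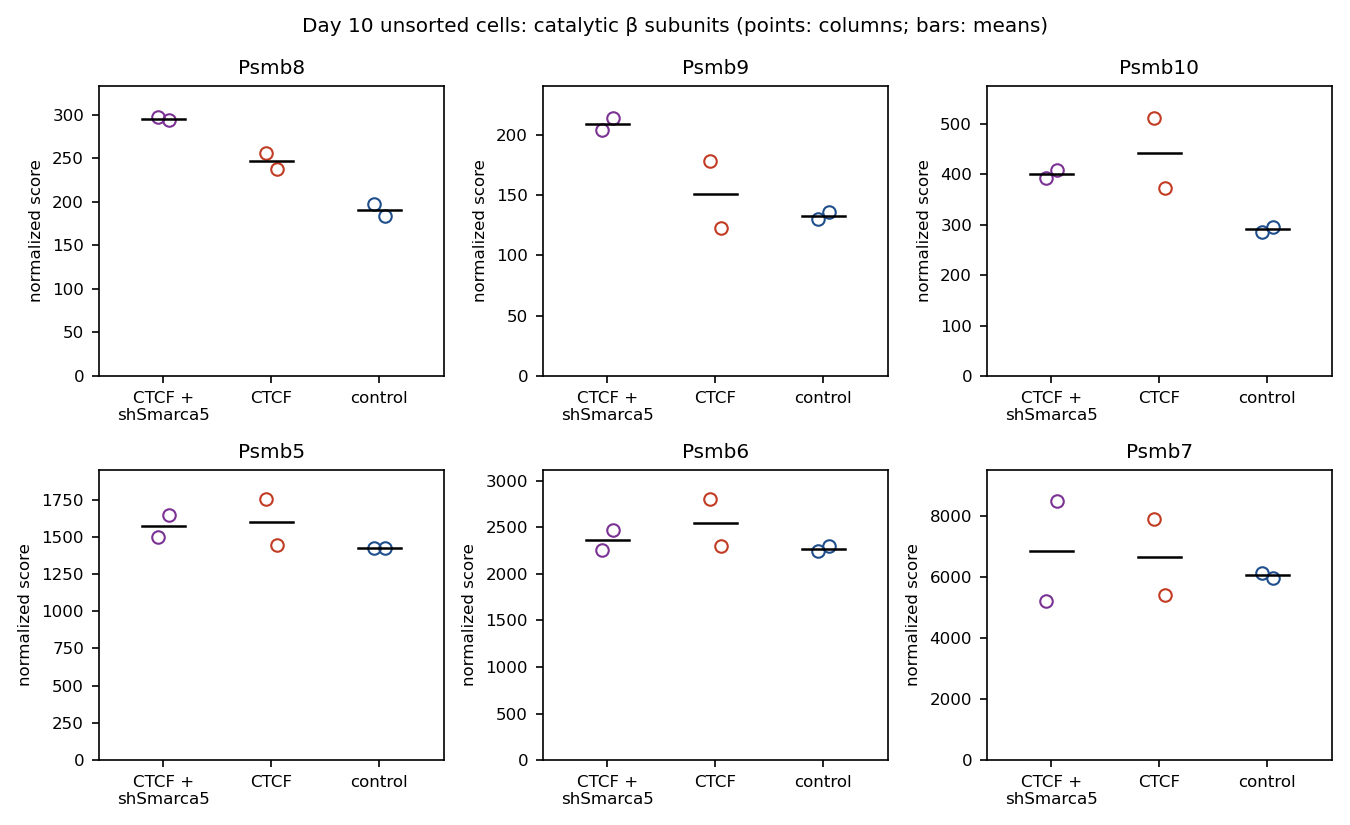
Scores of Psmb8, Psmb9, Psmb10 and their constitutive partners Psmb5, Psmb6 and Psmb7 in unsorted day 10 cells (y axis, normalized score from 0), with CTCF plus the Smarca5 hairpin left, CTCF in the middle and the control vector right, points for columns and bars for means. Psmb8 is at 297 and 294, 256 and 238, and 198 and 184 in the 3 groups, and the 2 treated groups of Psmb7 spread around the control columns.

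For day 10 the authors also deposited tables of condition means, log2 values and p-values, with no header. These cover CTCF overexpression and the Ctcf hairpin, each against its control. The labels list no day 10 libraries of CTCF alone or of the control vector beyond those above, so the overexpression table is not a second experiment. Which mean belongs to which condition was read from the Ctcf row. In the authors' deposited table for CTCF overexpression, Ctcf averaged 10177 in the condition with more and 2039 in the one with less, and 0 of 38 proteasome genes had p below 0.05 (1.38% of 14836 genes higher and 2.84% lower). Of the 38 log2 values 37 were positive with a median of 0.10, against 7675 of 14836 and a median of 0.01 over all genes. In the scores used above, the median over the proteasome genes was 0.07 with CTCF, and -0.02 without replicate 1 of CTCF. In that authors' deposited table Psmb10 averaged 810 and 696 (0.22), and Psmb8 670 and 581. In the authors' deposited table for the Ctcf hairpin, Ctcf averaged 1730 and 2197, and 6 of 38 proteasome genes were higher and 4 lower at p below 0.05, against 10.7% and 9.93% of 15373 genes. The higher ones in the authors' deposited table were Psmb4 (0.19, p = 7.05e-06), Psmb1, Psmd6, Psmd8, Psmd3 and Psmc5, and the lower ones Psma3 (-0.24, p = 1.17e-07), Psmd2, Psma4 and Psmb9, which averaged 192 and 273 (-0.51, p = 0.0296). In the authors' deposited table Psmb8 (-0.20, p = 0.242) and Psmb10 (-0.13, p = 0.464) had the sign of Psmb9 and did not pass.

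In the single iPSC and MEF libraries, with 9912018 and 16593659 counts, there is no replicate and no test. Psma8 had 108 counts in iPSCs (exact 95% Poisson interval 88.6 to 130) and 7 in MEFs (2.81 to 14.4), and Psmd3 3920 and 2309. Psmb8 had 2 counts in iPSCs (0.242 to 7.22) and 64 in MEFs (49.3 to 81.7), a ratio of depth-scaled counts (CPM) of 0.0523 (exact interval 0.00620 to 0.197). Psmb9 had 2 and 15, a ratio of 0.223 (0.0248 to 0.960), and Psmb10 49 and 134, a ratio of 0.612 (0.432 to 0.855). All 3 immunoproteasome genes were thus lower in the iPSC library, whereas Psmb10 was higher in GFP+ cells than in day 0 fibroblasts of the sorted series. The intervals cover counting error only. On log2(CPM + 1), 2 of 38 proteasome genes (5.26%) were at least 2-fold higher in iPSCs (Psma8 and Psmd3) and 3 (7.89%) at least 2-fold lower (Psmb8, Psmd10 and Psmd14), where 26.0% and 24.1% of 13861 genes were. Of the 38 values 31 were negative, against 6732 of 13861 over all genes, with medians of -0.51 and 0.03. Psmb8, Psmb9 and Psmb10 were at -2.01, -0.66 and -0.61, and Psmb5, Psmb6 and Psmb7 at -0.57, 0.46 and -0.11. The Psmb10 value thus lay near the median of the proteasome genes.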

How the data were processed

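RNA of 44 libraries of sorted cells, 6 columns of day 10 cells and 2 single libraries was measured by RNA-seq, after TRIzol extraction and a NEBNext Ultra kit per the labels' protocols. The day 10 libraries with the Ctcf hairpin or its control were used only through the authors' deposited comparison. Reads went through FastQC, Trim Galore and RSEM and were placed on mm10/GRCm38 (54 samples) or mm9 (2), per the submitters' processing notes, which give no versions. The sorted and day 10 tables hold whole-number scores that the authors normalized before they deposited them, by a method not given in the sources used here, so depth is unknown. The iPSC and MEF files hold raw read counts per gene as deposited. The authors' deposited comparison tables hold condition means as scores, log2 values and p-values, whose test is not given in the sources used here.

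The members and lists were chosen with earlier results of these data known. Every member is named, with values per library for the catalytic β genes and for the largest called change each way per role; of other lists the 2 largest called changes each way are named, with Psme1, Psme2, Tap1, Nfe2l1 and Pomp. One further list of pathway genes is not reported here. Genes that reached a score of 10 in 2 or more libraries were tested on log2(score + 1) with limma 3.58.1 (R 4.3.3), 1 coefficient per group, trend on, Benjamini-Hochberg adjustment over all genes, all groups of a table sharing 1 spread. Figures and summaries used Python 3.11.15, pandas 2.3.3 and matplotlib 3.10.9. The fits were tested on simulated data. Of the iPSC and MEF counts, exact 95% Poisson intervals were computed. Rows of repeat types (819 and 933) were not used. Promoters came from RefSeq tables and overlaps from GENCODE vM21. Alternatives were another pseudocount (8), a higher minimum score (100), quantile normalization, median scaling, the replicate number as a block, and leaving out each library.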

Additional observations from a re-analysis of the deposited data

Results flagged for a closer look

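The tests below were added after seeing the data and ask whether an effect differs between groups (limma F test over the interaction terms, Benjamini-Hochberg adjustment over all genes). The effect of the Ctcf hairpin differed among the 11 populations for 9 of 36 proteasome genes (25%), where it did for 56% of all genes. The adjusted p was 0.00586 for Psmb10, 0.00735 for Psmd11, 0.00767 for Psmb2, 0.0114 for Psma2, 0.0158 for Psmb3, 0.0270 for Psma8, 0.0328 for Psmd10, 0.0408 for Psmc4 and 0.0415 for Psmd9. For Psmb10 the log2 fold change of shCTCF over shLuci was -0.81 in double-negative cells of day 9 and -1.003 in GFP+ cells of day 12, both called. In the other populations it was not called and had either sign. It was 0.02 at day 0, and 0.09, -0.45 and -0.09 in Thy1+, SSEA1+ and double-negative cells of day 3. At day 6 it was 0.37, 0.31 and -0.32 in the same order, and at day 9 it was 0.13 in Thy1+ and 0.19 in SSEA1+ cells. For Psmd11 it was 0.30 in Thy1+ cells of day 6 and -0.29 at day 12.

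The difference between SSEA1+ and Thy1+ cells differed among days 3, 6 and 9 for 12 of 36 proteasome genes (33.3%), where it did for 50.1% of all genes. The adjusted p was 0.000142 for Psmd13, 0.000358 for Psmd5, 0.00126 for Psma1, 0.00176 for Psmd12, 0.00179 for Psmd2, 0.00330 for Psmc6, 0.00891 for Psmd8, 0.00937 for Psmd14, 0.00979 for Psmd1, 0.0124 for Psmc2, 0.0214 for Psmb10 and 0.0376 for Psmb4. Psmb10 kept its sign, with 0.99, 1.73 and 0.69 at days 3, 6 and 9, whereas Psmd13 was lower in SSEA1+ cells at day 3 and higher at day 6.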

How the results depend on the processing

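Of the 205 single-gene calls, 177 held under every setting that used all libraries and 113 in every fit that left out 1 library. Median scaling lost 18, quantile normalization 10 and a pseudocount of 8 lost 1. Same-numbered libraries showed little shared deviation (correlation -0.0829 to 0.0714), which cannot show whether their cultures were paired. With the replicate number as a block all 205 calls held, the lower genes in shCTCF double-negative cells of day 6 became 2, and the F tests called 11 and 14. No called gene reversed its direction. Some medians over the proteasome genes near 0 did, among them: 0.005 in place of -0.04 at day 12 against day 0 with quantile normalization, 0.004 in place of -0.09 in SSEA1+ against Thy1+ cells of day 3 without replicate 2 of the SSEA1+ cells, and -0.02 in place of 0.07 for CTCF against the control vector at day 10 without replicate 1 of CTCF. Median scaling gave 7 higher genes at day 12 against day 0 and 13 higher at day 12 against day 9. In SSEA1+ cells of day 3 against day 0 it gave 2 higher and 18 lower, in place of 3 and 14. In those of day 6 it gave 1 higher and 19 lower, in place of 2 and 13. In Thy1+ cells against day 0 it gave 6, 28 and 23 lower at days 3, 6 and 9. SSEA1+ against Thy1+ cells had 11 lower at day 3 and 2 lower at day 9. For the hairpin it gave 1 higher in Thy1+ and 5 higher in SSEA1+ cells of day 6 and 7 lower at day 12. Shares of all genes under median scaling were not counted. A pseudocount of 8 gave 0 lower in SSEA1+ against Thy1+ cells of day 9, 1.39 for the Psmb10 to Psmb7 difference of day 6 and 0.22 for the 3-pair difference with CTCF at day 10. Quantile normalization gave 0 higher under the hairpin at day 0 and 1 higher in each of SSEA1+ and double-negative cells of day 9.

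Leaving out 1 library, counts against day 0 ran from 8 to 13 lower in SSEA1+ cells of day 3, 1 to 2 higher and 8 to 11 lower at day 6, 0 to 1 higher and 9 to 19 lower at day 9, and 0 to 1 higher and 3 to 4 lower in Thy1+ cells of day 3. SSEA1+ against Thy1+ cells gave 1 to 2 lower at day 6, and 4 to 15 higher and 0 to 1 lower at day 9. Day 12 against day 9 gave 4 to 13 higher and 0 to 1 lower. The hairpin gave 1 to 3 higher and 0 to 2 lower on average, 0 to 7 higher at day 0, 0 to 2 higher in Thy1+, 0 to 8 higher in SSEA1+ and 0 to 2 higher and 0 to 4 lower in double-negative cells of day 6, 2 to 3 lower in double-negative cells of day 9, 3 to 8 lower at day 12, and 0 to 1 higher and 0 to 1 lower for SSEA1+ minus Thy1+ cells. The F test of the hairpin gave 6 to 16 genes, with 15 without replicate 1 of shCTCF at day 0 and 16 without replicate 1 of shCTCF SSEA1+ cells of day 6. The causes were not tested. With 2 libraries per group and no depth in the scores, low genes such as Psma8 and Psmb10 carry the widest errors.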

Other observations

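The level of single genes relative to the median proteasome gene differed between the tables, which were normalized separately. Psmd14 stood at 24.5 times the median subunit in sorted day 0 cells, 3.29 times in the day 10 control cells and 1.02 times in the MEF counts, and Psmc6 at 5.31, 1.78 and 1.53 times. The cause was not tested.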
